A study of Rattus norvegicus with 8 samples.

Results

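Serpins are a family of proteins that mostly inhibit proteases, and 45 of the 29884 gene rows counted in the cervix of pregnant rats carried a serpin symbol of clades a to i. They were chosen by symbol alone, as every row whose name begins with Serpin, a clade letter from a to i and a digit. The study injected wild-type Sprague-Dawley rats on gestational day 17, and the cervix was taken 12 hours later. In the PBS group, 4 rats received phosphate-buffered saline, and in the LPS group 4 rats received lipopolysaccharide, a glycolipid of the Gram-negative bacterial envelope, at 100 µg/kg into the peritoneum. The LPS dose serves as a model of preterm birth, and a library was made from each cervix as a whole. All animals were pregnant, and no cell type was isolated, so fewer cells of a type and less RNA per cell cannot be told apart in any value below.

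An inhibitory serpin offers a protease an exposed reactive loop. When the loop is cut, the serpin folds over, traps the enzyme and is itself used up, so that each inhibitor molecule serves once. Clade a members circulate in plasma or bathe tissues, clade b members stay largely inside cells, and the smaller clades control clotting, plasminogen activation and complement. Some members have given up inhibition and carry hormones or fold collagen. In the cervix, proteases and their inhibitors act on the collagen-rich stroma that softens before birth and on the mucus and epithelium that face the vagina.

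The RefSeq gene table of the assembly GRCr8 held all 45 symbols. It placed 16 of the 17 clade a genes in a cluster on chromosome 6, and the 17 clade b genes in a pair of clusters on chromosomes 13 and 17. Of the 45 rows, 12 had no count in any library, 8 had some counts but fell below the filter on low counts, and 25 were tested. Total counts ran from 33191039 to 40634384 per library, so that 3 counts equalled between 0.0734 and 0.0899 CPM (counts scaled to library depth, with TMM library factors). Levels are given on that scale and are not corrected for gene length, so levels of different genes are not compared.

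Of the 25 tested serpins, 8 were higher and 3 lower in LPS, and 14 were not called. Higher were Serping1, Serpinb3a, Serpinb3, Serpina3a, Serpinb9, Serpini1, Serpinb1a and Serpinh1, with log2 fold changes from 0.70 to 7.19. Lower were Serpina1, Serpinb7 and Serpina9, with values from -0.80 to -3.87. These calls rest on edgeR's quasi-likelihood test at an adjusted p under 0.05 over the 16117 genes tested, of which 9.49% were higher and 7.45% lower, or 16.9% called in all. DESeq2 called 13% of genes in each direction, limma-voom 8.87% higher and 7.35% lower, and limma-voom with quality weights 10.5% and 8.71%. Serpina3a, Serpinb3 and Serpinb3a passed the filter only through their LPS libraries. Serpina9, which was lower, reached the filter's floor in 4 PBS libraries and 1 LPS library. The calls of these genes carry no weight in a comparison of the family's share with that background. The count of higher serpins lay between 6 and 8 with any 1 library left out, where 5.53% to 8.47% of all genes were higher and 3.45% to 7.34% lower. The genes counted were not always the same: without PBS replicate 1, Serpina3n was called higher and Serpini1 was not. The count of lower serpins dropped to 0 when PBS replicate 2 was omitted and to 2 when PBS replicate 1 was. It was 3 with LPS replicate 1 omitted, and 1 with any other library omitted.

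In 8 higher and 2 lower serpins of the 25 the groups did not overlap, while 12.9% of all genes tested had every LPS library above every PBS library and 10.5% every LPS library below. Of these serpins Serpina3a, Serpinb3 and Serpinb3a reached the filter's floor in LPS libraries only, and Serpina9 in 4 PBS libraries and 1 LPS library, so nothing is read from their part in these counts.

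Together the serpins took 0.199%, 0.169%, 0.146% and 0.182% of all counts in PBS replicates 1 to 4, and 0.318%, 0.297%, 0.328% and 0.292% in LPS replicates 1 to 4. Every LPS library lay above every PBS library. Serping1 supplied 9.74% of the serpin counts in PBS and 26.0% in LPS (means over 4 libraries). The collagen chaperone Serpinh1 supplied 31.0% and 28.7%, and Serpinb1a 9.95% and 10.9%. These shares follow gene length as well as transcript number.

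**Figure D1:**
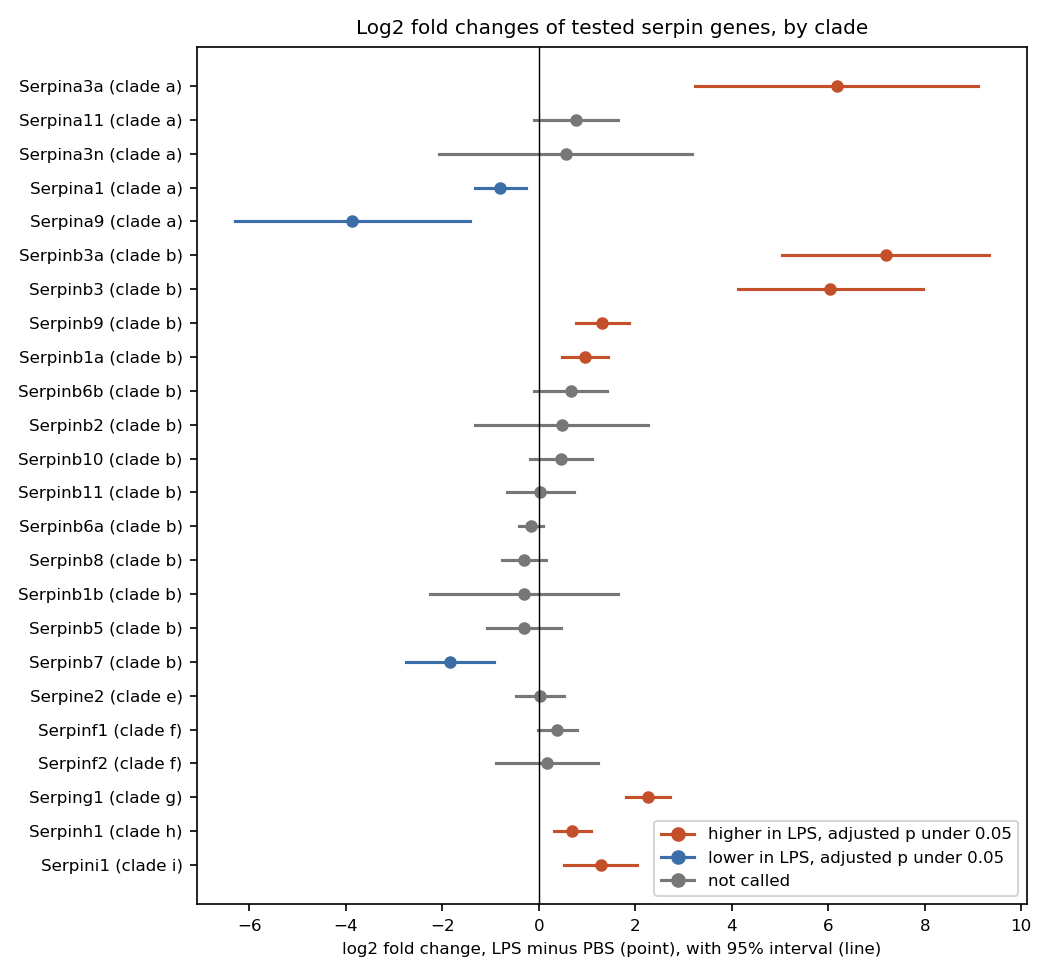
The log2 fold change of each tested serpin gene described here, LPS minus PBS, is drawn as a point with its 95% interval, ordered by clade and coloured by call. The intervals are widest for Serpina3a (3.24 to 9.11), Serpina3n (-2.06 to 3.17) and Serpina9 (-6.30 to -1.44), and that of Serpinb6a is narrow (-0.42 to 0.089).

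The markers of other cells that a piece of cervix can hold moved as follows. Of the neutrophil markers, 6 of 7 tested were higher, and their summed level rose from between 29.2 and 50.5 CPM in PBS to between 400.5 and 1620 CPM in LPS, although Elane and Camp stayed below the filter and Ltf had no count. Of the macrophage markers, 6 of 8 were higher and 1 lower (418 to 537 against 1052 to 1536 CPM). Of the T, NK and B cell markers, 3 of 7 tested were higher (5.20 to 10.9 against 14.4 to 22.5 CPM). Of the squamous epithelium markers, 3 of 6 tested were lower (4766 to 8767 against 3037 to 4020 CPM), with Krt13 at 2197 CPM in PBS and 94.9 CPM in LPS. The other lists had these changed members: columnar epithelium 0 of 8 (edgeR; 2 lower at an unadjusted p under 0.05, 2 lower by DESeq2, 0 by limma-voom, 1 lower with quality weights), smooth muscle and stroma 2 higher and 3 lower of 10, mast cells 1 higher of 7, endothelium 2 lower of 7, platelets 1 lower of 3, neurons and Schwann cells 2 lower of 7, and red cells 4 lower of 5. Of the 10 liver genes, 5 were tested, with Serpina1 and the fibrinogen gene Fga lower, and Alb, below the filter, stood at 0.145 CPM in PBS and 0.335 CPM in LPS. The trophoblast and decidua markers summed to at most 0.485 CPM. Of the defining markers, Prl8a2 and Gcm1 had no count, and Trp63, Lor and Prl3d1 had no row under those symbols.

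Clade a holds the plasma antitrypsin-like inhibitors and hormone carriers. Of its 17 rows, 5 were tested, of which Serpina3a was higher, Serpina1 and Serpina9 were lower, and Serpina11 and Serpina3n were not called. Of all genes tested, 9.49% were higher and 7.45% lower. Serpina3a passed the filter only through its LPS libraries, and Serpina9 through its PBS libraries. Nothing is read from their part in this count. Serpina1 encodes alpha-1-antitrypsin, the main plasma inhibitor of neutrophil elastase. Its level was 81.5, 86.8, 113 and 99.7 CPM in PBS replicates 1 to 4 and 83.8, 52.4, 42.2 and 40.3 CPM in LPS replicates 1 to 4. LPS replicate 1 lay within the PBS range, and the other LPS libraries lay below it. The log2 fold change was -0.80 (SE 0.23, adjusted p = 0.0476), and this call was kept in 1 of 8 fits that left out a library, the one without LPS replicate 1 (adjusted p = 0.00585; the others ran up to 0.113). The summed level of the hepatocyte list, of which Serpina1 is itself a member, was 204 to 238 CPM in PBS and 124 to 192 CPM in LPS.

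Serpina3a and Serpina3n belong to the rodent group of genes related to human alpha-1-antichymotrypsin, and Serpina3n is known as an acute phase gene whose product inhibits granzyme B and leukocyte elastase. The 250 bases before their annotated starts are shown because both genes lie in 1 cluster and differed in their calls. The sequences are RefSeq's, on GRCr8. Capitals mark matches, on either strand, to motifs bound by factors of inflammation: GGG and CC parted by any 5 bases for NF-kB, TTCNNNGAA for STAT factors, TTGCNNAA for C/EBP, TGANTCA for AP-1, and GAAA and GAAA parted by any 2 bases for interferon-regulated factors. The heat shock element (TTC, GAA and TTC, parted each time by any 2 bases) and the TATA box TATAAA were searched too.
Serpina3a, chr6:128940650-128940899, plus strand: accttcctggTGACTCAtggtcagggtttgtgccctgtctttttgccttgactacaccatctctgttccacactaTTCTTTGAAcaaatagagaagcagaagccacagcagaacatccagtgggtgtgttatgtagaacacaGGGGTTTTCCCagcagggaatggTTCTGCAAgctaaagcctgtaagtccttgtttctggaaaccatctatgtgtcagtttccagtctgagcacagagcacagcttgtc
Serpina3n, chr6:129088142-129088391, plus strand: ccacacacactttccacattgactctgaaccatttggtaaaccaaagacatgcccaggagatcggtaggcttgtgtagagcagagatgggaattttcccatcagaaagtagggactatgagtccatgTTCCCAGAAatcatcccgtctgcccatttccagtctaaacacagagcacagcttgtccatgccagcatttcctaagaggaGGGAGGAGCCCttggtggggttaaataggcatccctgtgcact
The Serpina3a window matched the NF-kB motif at a pair of overlapping positions, and the STAT, C/EBP and AP-1 motifs once each. That of Serpina3n matched NF-kB at 2 overlapping positions and STAT once. Of all 33469 RefSeq windows of this length, 42.3% matched the NF-kB motif, 7.67% the STAT motif, 9.22% the C/EBP motif and 6.34% the AP-1 motif, and such a match is a run of letters and not a measured site. Related genes of a cluster can share reads, and how reads that fit several genes were counted is not given in the sources used here. The values of Serpina3a and Serpina3n are uncertain to that extent.

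Serpina3a had 2, 0, 0 and 2 counts in PBS replicates 1 to 4, and 65, 28, 236 and 10 counts in LPS replicates 1 to 4. All LPS libraries were above all PBS libraries, and LPS replicate 3 held most of the counts. The ratio of the summed counts was 81.3 (95% counting interval 31.5 to 300.2; 339 counts against 4), which covers counting error only. The log2 fold change was 6.18 (SE 1.29, adjusted p = 0.0145), or 4.86 without LPS replicate 3.

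Serpina3n read 258, 15.8, 9.27 and 5.22 CPM in PBS replicates 1 to 4, and 94.2, 33.05, 154 and 142 CPM in LPS replicates 1 to 4. PBS replicate 1 was above every other library, and the other 3 PBS libraries were below every LPS library. With all libraries the log2 fold change was 0.56 (SE 1.15, adjusted p = 0.777, 95% interval -2.06 to 3.17). It rose to 3.38 once PBS replicate 1 was left out (adjusted p = 0.0118). With LPS replicate 2 left out as well it was 3.68 (adjusted p = 0.00447). PBS replicate 1 also held the most of Ctsb, a lysosomal cysteine protease (8358 CPM against 1454 to 3549 CPM in the other PBS libraries), and of the endocytic receptor Lrp2 (444 CPM against 43.4 to 178 CPM). Whether these excesses share a source was not tested.

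Serpina9, known from germinal centre B cells, had 16, 56, 34 and 112 counts in PBS replicates 1 to 4 and 11, 0, 0 and 5 in LPS replicates 1 to 4. The groups did not overlap. Its log2 fold change was -3.87 (SE 1.07, adjusted p = 0.0402). The call was kept without PBS replicate 1 or LPS replicate 1 and lost without any other library, and the value was -5.06 without LPS replicate 1 and -3.11 without PBS replicate 4. The B cell marker Ms4a1 was below the filter. Serpina11 stood at 1.52 ± 0.563 CPM in PBS and 2.61 ± 1.01 CPM in LPS (SD, n = 4 per group; log2 fold change 0.78, 95% interval -0.090 to 1.65, adjusted p = 0.196).

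Of the other clade a rows, 12 had few or no counts. Serpina6, the corticosteroid carrier of plasma, and the protein C inhibitor Serpina5 had no count in any library, nor had the kallikrein inhibitor Serpina4, Serpina16, Serpina1f or Serpina3j. The thyroxine carrier Serpina7 had 1 count in all, Serpina10 had 4, Serpina3c had 6, Serpina3l had 2 and Serpina3m had 7. Serpina12, the adipokine vaspin, had 59 counts in PBS and 19 in LPS, too few for the filter. The same held for antithrombin, Serpinc1 of clade c, with 1 count, and heparin cofactor II, Serpind1 of clade d, with no count.

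**Figure D2:**
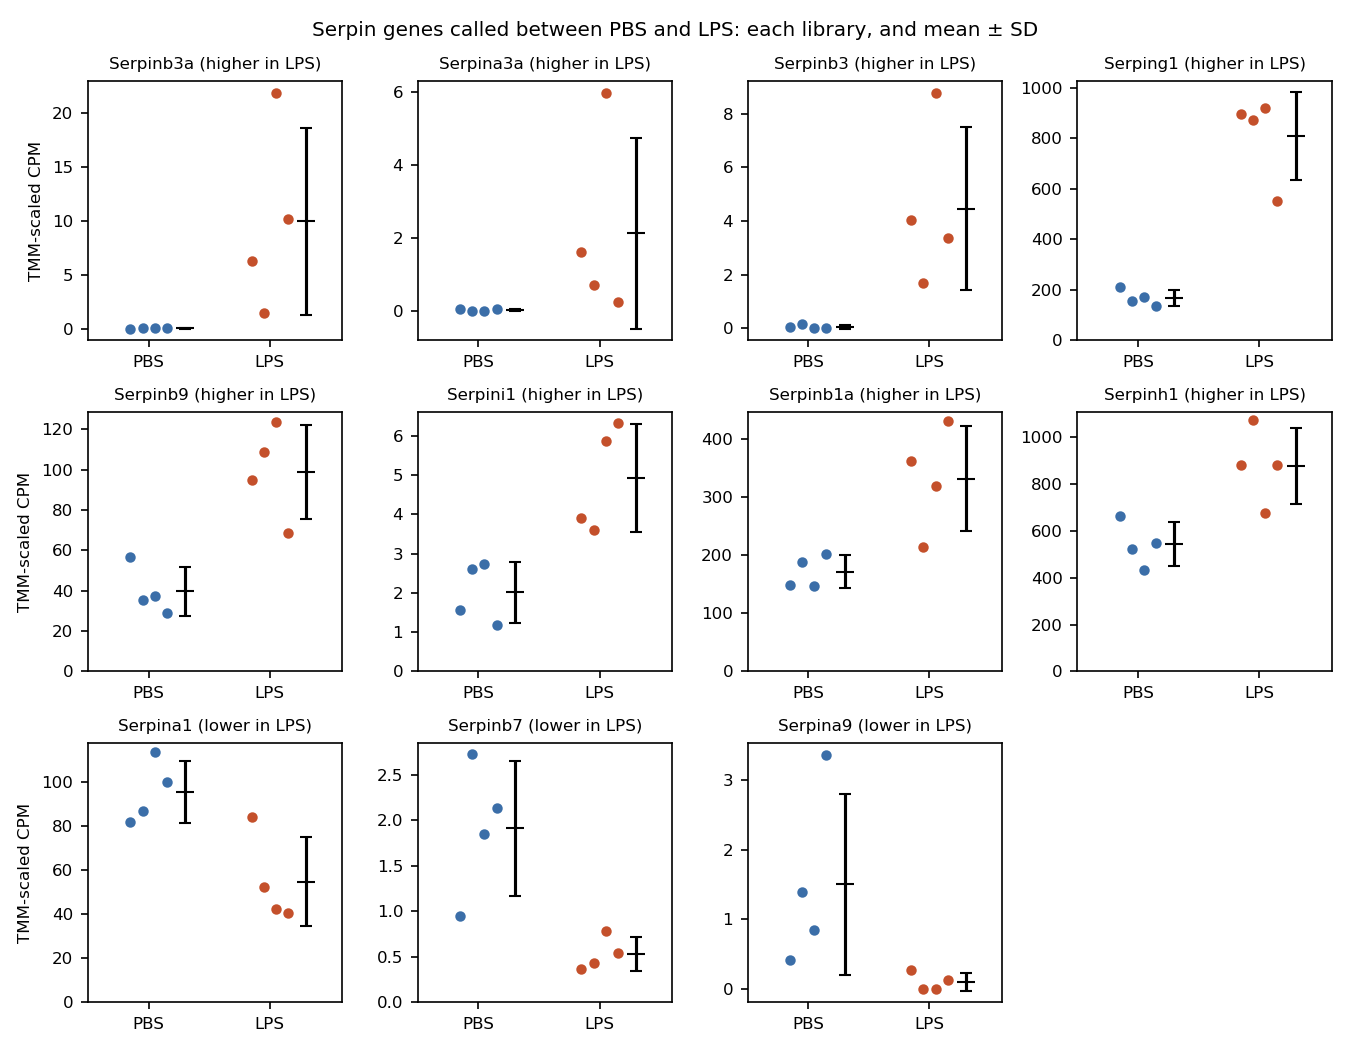
Each panel shows a called serpin gene as its level in TMM-scaled CPM in the 4 PBS and 4 LPS libraries (points), with the mean ± SD beside them on a linear axis. Groups do not overlap in 10 of the 11 panels, and in that of Serpina1 an LPS library at 83.8 CPM lies among the PBS libraries.

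Clade b, the ovalbumin-like serpins, had the most tested members, 13 of 17 rows. Of these, 4 were higher, 1 lower and 8 not called, where 9.49% of all genes tested were higher and 7.45% lower. Serpinb3 and Serpinb3a passed the filter only through their LPS libraries, so nothing is read from their part in this count. On chromosome 13 Serpinb3a and Serpinb3, which are neighbours, were higher and Serpinb7 lower among 8 tested clade b genes. On chromosome 17 Serpinb1a and Serpinb9 were higher among 5.

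Serpinb3 and Serpinb3a are rodent relatives of the human squamous cell carcinoma antigens, epithelial inhibitors that act on lysosomal cysteine proteases. Serpinb3a read 0.026, 0.099, 0.074 and 0.060 CPM in PBS replicates 1 to 4, and 6.32, 1.48, 21.8 and 10.2 CPM in LPS replicates 1 to 4. Serpinb3 read 0.051, 0.17, 0 and 0.030 CPM in PBS and 4.03, 1.69, 8.76 and 3.35 CPM in LPS. LPS replicate 3 was the highest and LPS replicate 2 the lowest of the LPS libraries for both rows. The 712 counts of Serpinb3 in LPS were 68.3 times its 10 in PBS (95% counting interval 36.9 to 143), and its log2 fold change was 6.04 (SE 0.84, adjusted p = 0.00292). That value was 7.22 without PBS replicate 2, while that of Serpinb3a (7.19, SE 0.94, adjusted p = 0.00226) was 6.46 without LPS replicate 3. Reads can be split between these copies, and with both rows summed the log2 fold change was 6.76 (SE 0.83, adjusted p = 0.00178). Limma-voom called Serpinb3 (adjusted p = 0.0209) and not Serpinb3a (adjusted p = 0.0586). The Serpinb3 window, shown for the row that every tool called, matched the AP-1 motif and a TATA box close to the start.
Serpinb3, chr13:23795299-23795548, minus strand: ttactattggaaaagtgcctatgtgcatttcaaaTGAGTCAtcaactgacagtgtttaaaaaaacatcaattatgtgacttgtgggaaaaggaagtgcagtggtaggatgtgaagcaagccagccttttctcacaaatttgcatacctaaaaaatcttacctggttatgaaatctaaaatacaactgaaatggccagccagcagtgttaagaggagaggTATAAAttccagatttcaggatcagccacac
TATAAA was found, on either strand, in 12.9% of all windows. The window of Serpinb7, which was lower, matched AP-1 too, and TATAAA on the opposite strand only. The windows of Serpinb3a matched no motif searched. AP-1 was matched in 5 of 22 tested serpins with a window, 2 higher, 1 lower and 2 not called. While Serpinb3 and Serpinb3a were higher, the squamous keratin Krt13 and the cornified envelope gene Sprr1a were lower (log2 fold changes -4.53 and -1.49, adjusted p = 0.000846 and 0.0241). The basal keratins Krt5 and Krt14 had values of -0.30 and 0.12 (adjusted p = 0.339 and 0.751).

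Serpinb7 and Serpinb12 had higher levels in PBS than in LPS. Serpinb7, or megsin, read 0.945, 2.72, 1.85 and 2.13 CPM in PBS replicates 1 to 4 and 0.371, 0.435, 0.785 and 0.538 CPM in LPS replicates 1 to 4. The groups did not overlap, and the log2 fold change was -1.84 (SE 0.40, adjusted p = 0.0169). Leaving out PBS replicate 2 ended the call (-1.62, adjusted p = 0.0552). Serpinb12 fell below the filter, because 2 PBS libraries held few counts. It had 426, 4, 78 and 2 counts in PBS replicates 1 to 4 and 1, 1, 0 and 0 in LPS replicates 1 to 4, so PBS replicate 1 supplied most of its 510 PBS counts. The squamous marker list was lower in LPS as well, and its part in these values was not tested. Serpinb13, another epithelial clade b gene, had no count.

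Serpinb9 inhibits granzyme B and shields cells from the cytotoxic granules of lymphocytes. It read 56.8, 35.2, 37.6 and 29.0 CPM in PBS replicates 1 to 4, and 94.8, 109, 124 and 68.9 CPM in LPS replicates 1 to 4. Each LPS library exceeded each PBS library, and PBS replicate 1 was the highest control. It rose by 1.32 on the log2 scale (SE 0.24, adjusted p = 0.00807), and the gene was called in all 8 fits that left out a library. Its protease Gzmb rose from 0.283 ± 0.172 to 2.62 ± 1.68 CPM (SD, n = 4 per group), by 3.21 on the log2 scale (adjusted p = 0.0107). The Serpinb9 window is shown for its match to the interferon motif, which 3.41% of all windows and 2 of 22 tested serpins with a window held.
Serpinb9, chr17:31640817-31641066, minus strand: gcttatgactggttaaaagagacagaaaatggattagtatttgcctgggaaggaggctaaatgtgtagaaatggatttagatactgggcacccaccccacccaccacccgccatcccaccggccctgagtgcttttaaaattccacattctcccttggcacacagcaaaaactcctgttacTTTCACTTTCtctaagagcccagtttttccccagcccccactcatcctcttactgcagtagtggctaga
The other serpin with that match was Serpinb2, which was not called.

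Serpinb1a inhibits the serine proteases of neutrophil granules and is abundant in neutrophils themselves. Its level was 149, 189, 147 and 202 CPM in PBS replicates 1 to 4 and 363, 214, 320 and 432 CPM in LPS replicates 1 to 4. LPS replicate 2 was only just above the highest PBS library, and LPS replicate 4 was the highest. Its rise was 0.95 on the log2 scale (SE 0.21, adjusted p = 0.0183). Leaving out PBS replicate 3 ended the call (0.89, adjusted p = 0.0521). The neutrophil markers summed to 712, 400.5, 899.6 and 1620 CPM in LPS replicates 1 to 4, so LPS replicates 2 and 4 were the lowest and highest for both. The part of neutrophils in the rise of Serpinb1a was not tested. Of the granule proteases it inhibits, Elane and Prtn3 were below the filter and Ctsg had no count.

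The other clade b members were not called, and their 95% intervals are given as a measure of uncertainty and not as limits on the change. Serpinb5, or maspin, an epithelial serpin that inhibits no known protease, read 112 ± 42.0 CPM in PBS and 90.2 ± 38.5 CPM in LPS (SD, n = 4 per group; log2 fold change -0.31, 95% interval -1.08 to 0.47). Serpinb6a, an inhibitor of cathepsin G, had the narrowest interval of the family, -0.42 to 0.089 around -0.16. Serpinb8, which inhibits furin, read 40.6 ± 9.64 against 32.9 ± 7.74 CPM (interval -0.76 to 0.15), and Serpinb11 57.3 ± 24.0 against 58.6 ± 15.6 CPM (interval -0.67 to 0.73). Serpinb10, known from myeloid cells, had 109 ± 22.9 against 151 ± 60.5 CPM (interval -0.18 to 1.11), with 218 and 186 CPM in LPS replicates 3 and 4 and no more than 138 CPM elsewhere. Serpinb2, plasminogen activator inhibitor 2, ranged from 4.44 to 42.1 CPM in PBS and from 3.81 to 55.4 CPM in LPS, so its interval ran from -1.32 to 2.26. The scarcer Serpinb1b and Serpinb6b had intervals of -2.26 to 1.65 and -0.094 to 1.42, and Serpinb6e and Serpinb9d had no count.

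**Figure D3:**
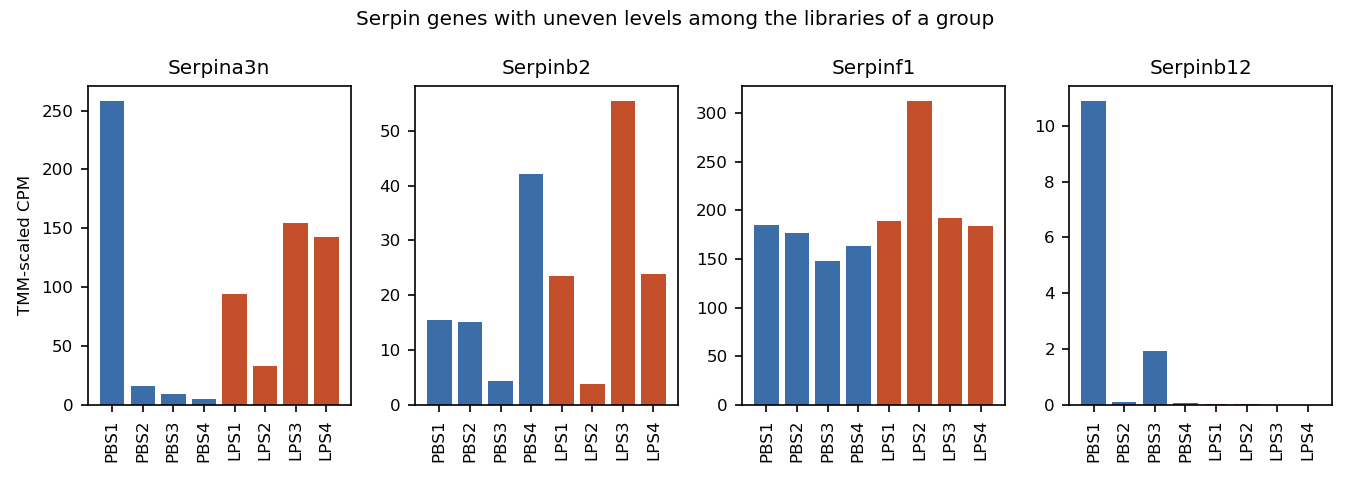
Bars give the level of 4 serpin genes, which were not called or fell below the filter, in TMM-scaled CPM for each library (PBS1 is PBS replicate 1, and so on). PBS replicate 1 stands out for Serpina3n at 258 CPM and LPS replicate 2 for Serpinf1 at 312 CPM.

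Of clade e, Serpine2, which inhibits thrombin on cell surfaces, read 15.7 ± 3.77 CPM in PBS and 16.0 ± 3.56 CPM in LPS (SD, n = 4 per group), with an interval of -0.46 to 0.51, and Serpine3 had no count.

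Plat, which turns plasminogen into the protease plasmin, rose from 79.4 ± 14.97 to 209.8 ± 74.4 CPM (SD, n = 4 per group), or by 1.40 on the log2 scale (SE 0.28, adjusted p = 0.0124). LPS replicate 4 held 106 CPM and the other LPS libraries at least 206 CPM. Plau, the other activator, had a value of 0.23 (adjusted p = 0.456), and its receptor Plaur one of 0.74 (adjusted p = 0.136). The cofactor Vtn, an adhesive glycoprotein, had a value of -0.51 (adjusted p = 0.290). Plasminogen itself, Plg, was below the filter at 0.150 CPM in PBS and 0.0692 CPM in LPS.

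Clade f has a pair of neighbouring members, neither of which was called (edgeR; 0 at an unadjusted p under 0.05, and 0 by DESeq2 or either limma-voom fit). Serpinf1, pigment epithelium-derived factor, an antiangiogenic protein that inhibits no protease, read 185, 176, 148 and 163 CPM in PBS replicates 1 to 4 and 189, 312, 192 and 184 CPM in LPS replicates 1 to 4. LPS replicate 2 lay far above the other libraries, which all lay between 148 and 192 CPM. Its log2 fold change of 0.38 (SE 0.18, adjusted p = 0.176) became 0.16 without LPS replicate 2. Serpinf2, the plasmin inhibitor alpha-2-antiplasmin, was scarce, with 0.731 ± 0.142 and 0.824 ± 0.536 CPM (SD, n = 4 per group; interval -0.88 to 1.23).

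Serping1 of clade g encodes C1 inhibitor, which blocks the complement proteases C1r and C1s and the contact proteases kallikrein and factor XII. It had the smallest adjusted p of the family. It read 209.9, 157, 171 and 135 CPM in PBS replicates 1 to 4, and 894, 872, 918 and 551 CPM in LPS replicates 1 to 4. The groups were far apart, with LPS replicate 4 below the other LPS libraries. Serping1 rose by 2.26 on the log2 scale (SE 0.20, adjusted p = 0.000557), or 4.80-fold, and stayed between 2.17 and 2.41 with any 1 library left out. Its target proteases rose with it: C1r rose by 2.24 on the log2 scale (SE 0.14, adjusted p = 0.000267) and C1s by 2.41 (SE 0.12, adjusted p = 0.000139). LPS replicate 4 was also the lowest LPS library for C1r (1323 CPM against at least 1745 CPM) and for C1s (1156 CPM against at least 1328 CPM). That was not particular to these genes: it was the lowest for Lrp1, F10, Plat, Gzmb, Gzma and Serpinb9 too. Another LPS library was the lowest for Serpinb1a, Sdc4 and Dcn. Klkb1, the gene of plasma kallikrein, had no count, and F12 was below the filter. Serping1 had no window in the RefSeq promoter table.

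**Figure D4:**
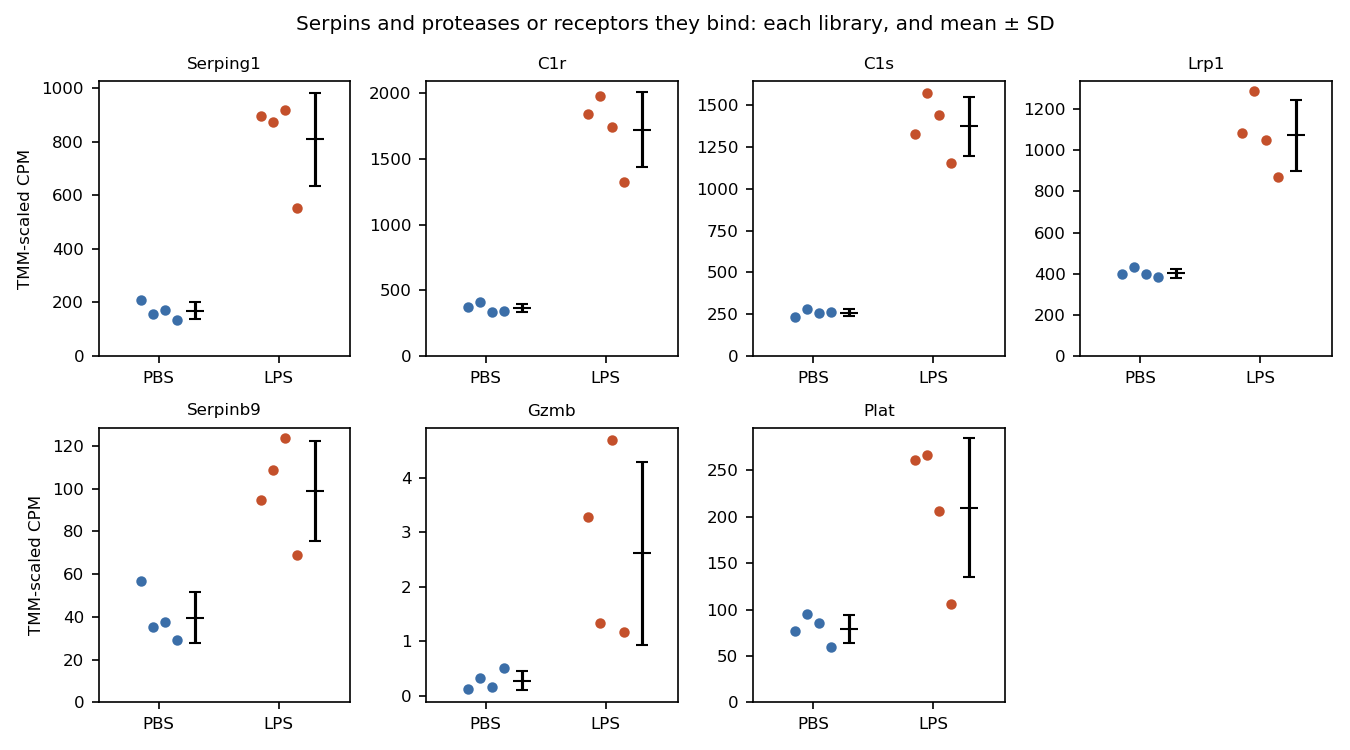
Each panel shows a serpin, a protease or the receptor Lrp1 as its level in TMM-scaled CPM in each library (points), with mean ± SD. Serping1, C1r, C1s, Lrp1, Serpinb9, Gzmb and Plat all separate the groups, and in each panel LPS replicate 4 is the lowest LPS library.

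Serpinh1 of clade h, known as Hsp47, is a collagen chaperone of the endoplasmic reticulum and inhibits no protease. It read 663, 521, 435 and 550.1 CPM in PBS replicates 1 to 4, and 884, 1074, 678 and 881 CPM in LPS replicates 1 to 4. The lowest LPS library, replicate 3, was only just above the highest PBS library, replicate 1. Serpinh1 rose by 0.70 on the log2 scale (SE 0.17, adjusted p = 0.0256), and it missed the threshold in 5 of 8 fits with a library left out, PBS replicate 2, 3 or 4 or LPS replicate 1 or 2 (adjusted p from 0.0526 to 0.0758). Of the 8 collagen chains listed as its clients, Col3a1 was higher (0.61, SE 0.17, adjusted p = 0.0416) and 0 were lower (edgeR; 1 lower at an unadjusted p under 0.05, 0 by DESeq2 or limma-voom). Col1a1 and Col1a2 had values of 0.17 and 0.25 (adjusted p = 0.560 and 0.377). The window before Serpinh1 is shown because it held the heat shock element, just before the start. Its other marked stretch, further from the start, is a match to the NF-kB motif, which 42.3% of all windows held.
Serpinh1, chr1:163062977-163063226, minus strand: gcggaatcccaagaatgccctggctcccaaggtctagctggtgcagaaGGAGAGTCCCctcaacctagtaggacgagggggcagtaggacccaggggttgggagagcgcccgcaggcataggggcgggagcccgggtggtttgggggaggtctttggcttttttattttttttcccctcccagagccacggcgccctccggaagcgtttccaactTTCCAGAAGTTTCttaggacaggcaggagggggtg
The element was found in 0.663% of all windows and before 1 of the 22 tested serpins with a window, Serpinh1.

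Serpini1 of clade i, neuroserpin, is a neuronal inhibitor of the plasminogen activator Plat. It read 1.56, 2.60, 2.74 and 1.17 CPM in PBS replicates 1 to 4 and 3.90, 3.61, 5.88 and 6.33 CPM in LPS replicates 1 to 4, with no overlap. Serpini1 rose by 1.29 on the log2 scale (SE 0.33, adjusted p = 0.0315). It missed the threshold in 5 of 8 fits with a library left out, PBS replicate 1, 2 or 4 or LPS replicate 3 or 4 (adjusted p from 0.0558 to 0.0768). Of the neuron and Schwann cell markers 2 of 7 tested were lower, and their summed level was 106 to 195 CPM in PBS and 17.9 to 129 CPM in LPS, ranges that overlap. Serpini2, its pancreatic relative, had no count.

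Among the 57 listed proteases, cofactors, receptors and clients of serpins, 46 were tested, and 13 were higher and 1 lower, where 9.49% of all genes tested were higher and 7.45% lower. Of 19 serine proteases, 6 rose and 0 fell (edgeR; 1 lower at an unadjusted p under 0.05, and 1 by DESeq2). They were C1s, C1r, F10, Gzmb, Plat and Gzma, and F10, which activates prothrombin, rose from 0.853 ± 0.227 to 6.58 ± 1.27 CPM (SD, n = 4 per group; log2 fold change 2.95, adjusted p = 0.000480). Gzma (7, 0, 1 and 8 counts in PBS replicates 1 to 4) and Gzmb (5, 13, 7 and 17) passed the filter through their LPS libraries. Nothing is read from their part in the numbers of higher genes given here. Of 8 cysteine proteases, 3 rose and 0 fell (edgeR; 1 lower at an unadjusted p under 0.05, and 1 by DESeq2). They included Casp1, the inflammatory caspase, and the lysosomal protease Ctsl (log2 fold changes 1.22 and 0.75, adjusted p = 0.0004 and 0.0220). Of 11 cofactors and receptors, 3 rose and 1 fell. Lrp1, the endocytic receptor that clears serpin-protease complexes, rose from 403 ± 22.2 to 1073 ± 173 CPM (log2 fold change 1.41, SE 0.13, adjusted p = 0.000568). The heparan sulphate carrier Sdc4 and the proteoglycan Dcn rose by 1.66 and 1.47 (adjusted p = 0.00355 and 0.00124). Thbd, thrombomodulin, which turns thrombin towards protein C, fell by 0.80 on the log2 scale (adjusted p = 0.00939).

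Of the 11 called serpins, 5 were called in all 8 fits that left out a library: Serping1, Serpinb9, Serpinb3, Serpinb3a and Serpina3a. Serpinb3, Serpinb3a and Serpina3a passed the filter only through their LPS libraries, so nothing is read from their part in this count. The share of all genes called in every such fit is not given, so the count is not compared with a background. The 3 lower serpins each lost their call in at least 1 such fit, and so did the higher serpins Serpinb1a, Serpinh1 and Serpini1.

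**Figure D5:**
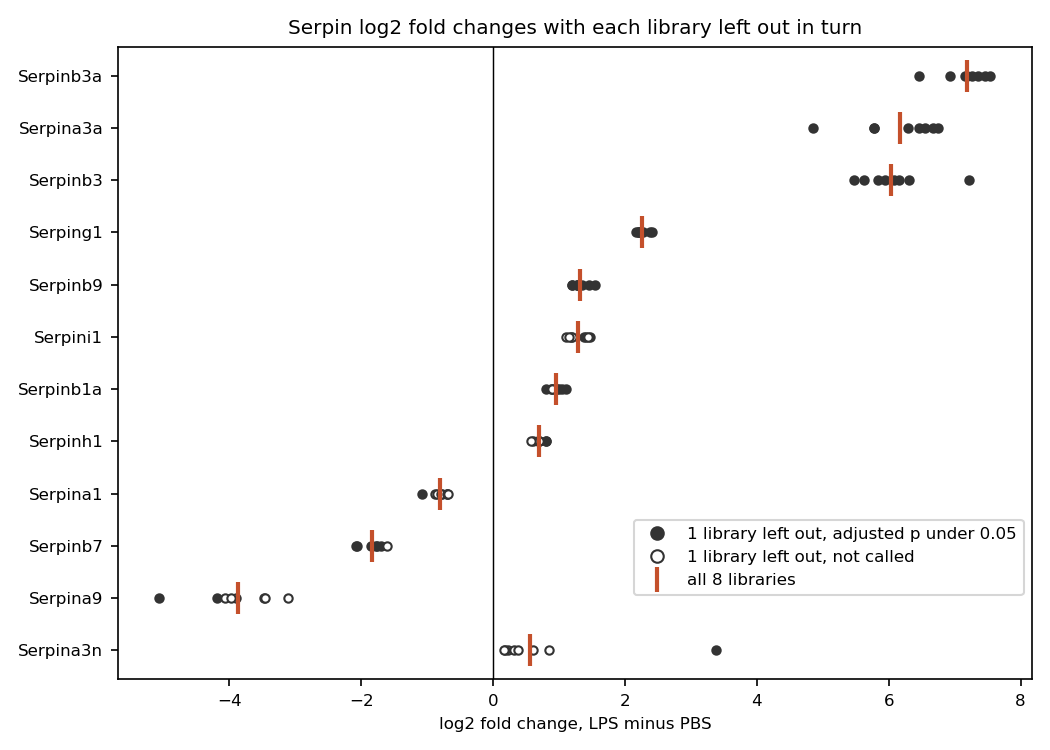
The log2 fold change of the 11 called serpins and of Serpina3n is drawn with all 8 libraries (bar) and with each library left out in turn (filled points where the adjusted p was under 0.05). The points of Serping1 stay between 2.17 and 2.41, while a single point of Serpina3n, that without PBS replicate 1, lies at 3.38.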

How the data were processed

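RNA of cervix from 4 PBS and 4 LPS rats was measured as 8 libraries, made, per the labels' protocols, from total RNA with the VAHTS Universal V6 kit. The deposited values are raw counts, whole numbers with 1 row per gene symbol. Per the submitters' processing notes, HTSeq, HISAT2, fastp and R 3.2.0 were used, with mRatBN7.2 as the build. For annotation, strand setting and reads that fit several genes, nothing is stated (not given in the sources used here), and close copies, overlapping and antisense genes cannot be told apart. Columns were matched to samples by library name. The design text calls the libraries biological replicates.

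Genes were kept by edgeR's filterByExpr (16117 genes), scaled by TMM (trimmed mean of M values) and tested with edgeR 4.0.16 in R 4.3.3 (robust quasi-likelihood F test, no covariate, Benjamini-Hochberg over all genes tested, called at an adjusted p under 0.05). The SE is the log2 fold change divided by the square root of F. The 95% intervals of log2 fold changes use it with the test's degrees of freedom. Fold changes are LPS minus PBS. The fit was tested on simulated data. Counting intervals are exact binomial and cover counting error only. No 2 libraries of a group matched within sampling noise (chi-square over its degrees of freedom was 57.2 or more).

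Each library was left out in turn. The other alternatives were upper-quartile and RLE scaling, a stricter filter (1 CPM or more in 4 or more libraries) or none, limma-voom 3.58.1 without or with quality weights, DESeq2 1.42.0, and the replicate number as a block. Leaving out both PBS replicate 1 and LPS replicate 2, and summing close copies, were added after seeing the data. The members, the lists and the rule for named genes were chosen with earlier results of these data known. By that rule every called serpin is given by library, serpins of at least 5 CPM by group, and the others by range or count. Of the protease and partner lists, up to 3 called genes per role and direction are named, and where 5 or fewer were called, all. Partner genes and libraries' values beyond it (Plat, Gzmb and Gzma, Plau, Plaur, Vtn, Plg, Ctsb, Lrp2, uncalled collagens and proteases at or near 0) and markers were chosen after their values were seen. Promoter windows are the 250 bases before RefSeq starts on GRCr8, found for 37 members. A few genes that enter the counts are not reported here by name.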

Additional observations from a re-analysis of the deposited data

Results flagged for a closer look

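Of 48 sets of 4 libraries, 24 tested serpins in each group, 4 had a library whose gap to the nearest other was large against the group's range, and chance gives about 1 in 20. Serpina3n stood at 258 CPM in PBS replicate 1 against 5.22 to 15.8 CPM in the other PBS libraries. Serpinf1 stood at 312 CPM in LPS replicate 2 against 184 to 192 CPM. Serping1 was low in LPS replicate 4, at 551 CPM against 872 to 918 CPM, and so was Serpinb6b, at 2.74 CPM against 4.20 CPM in each of the other LPS libraries. These are values of single animals, and their sources were not tested.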

How the results depend on the processing

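The count of higher serpins, not always of the same genes, was 8 with all libraries and between 6 and 8 in every setting tried. That of lower serpins was 3, but 1 with the stricter filter (fewer genes tested), 1 with the replicate block (where 7.14% of all genes were higher and 5.24% lower), 1 without both PBS replicate 1 and LPS replicate 2, and 0 to 3 with 1 library left out. At an unadjusted p under 0.05, 3 were lower without PBS replicate 2, where the count was 0. With no filter Serpinb12 entered and Serpina1 left the lower calls (adjusted p = 0.0581). The partner genes gave 13 higher and 1 lower, with 10 to 14 higher across the settings and 3 lower with DESeq2. The replicate numbers are those of the sample titles. Deviations of same-numbered libraries correlated at -0.062, -0.12, -0.078 and 0.23, and those of differently numbered libraries at -0.22 to 0.19. So few values cannot settle whether the numbers mark a pairing. Under the replicate block Serpina1, Serpina9 and Serpini1 lost their calls (adjusted p = 0.0876, 0.0911 and 0.0687). Called values moved by over 1.5-fold for Serpina3a (5.30 with limma-voom, 5.51 with quality weights, 6.95 without both libraries), Serpinb3 (6.76 with copies summed), Serpinb3a (6.17 with quality weights) and Serpina9 (-4.47 with limma-voom). With 1 library left out, such moves included Serpina3a (4.86 without LPS replicate 3) and Serpinb3 (7.22 without PBS replicate 2). They also included Serpinb3a (6.46 without LPS replicate 3) and Serpina9 (-5.06 without LPS replicate 1, -3.11 without PBS replicate 4). Uncalled genes changed sign with 1 library left out: Serpinb11 (-0.15 to 0.32), Serpinb1b (-0.69 to 0.088), Serpinb2 (-0.17 to 1.19), Serpine2 (-0.082 to 0.16) and Serpinf2 (-0.34 to 0.41). Serpinb1b was at 0.45 without both libraries, Serpine2 at -0.048 with quality weights, and Serpinf2 at -0.0090 with limma-voom and -0.0058 with the block. The cause was not tested. Of all values of single serpins under the alternatives, 392 kept direction and call, 33 lost the call, 2 gained it and 15 changed sign. A few counts per library limit Serpinb3, Serpinb3a and Serpina3a in PBS and Serpina9 in LPS.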
